A study of Lactuca sativa with 9 samples.

Results

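Of 38910 annotated lettuce genes, 58 were silent in mature leaves of 60184 (SSL) while being expressed in ‘Okeechobee’ (LSL). They were chosen by their raw read counts: at most 3 reads summed over the 3 libraries of 60184 (SSL), and a mean of at least 100 reads over the 3 libraries of ‘Okeechobee’ (LSL). The second condition alone held for 16375 genes, so the 58 genes made up 0.354% of the genes expressed in ‘Okeechobee’ (LSL). Everything that the choice used, the levels in ‘Okeechobee’ (LSL) and in 60184 (SSL), is given as a description without a test. The libraries of ‘Manatee’ (ISL), the order of the genes along the chromosomes and the functions of the genes took no part in it.

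The study compared 3 romaine lettuces, the cultivars ‘Okeechobee’ (LSL, long shelf-life) and ‘Manatee’ (ISL, intermediate shelf-life) and the experimental breeding line 60184 (SSL, short shelf-life). No plant was treated, and no gene was altered on purpose: the groups differ in their genotype and share the growth chamber at 22 °C with a 16 h day. RNA was taken at maturity from leaves (the first fully expanded one), and each genotype gave 3 poly-A RNA-seq libraries, which the labels number as replicates without saying that they are separate plants. A group stands for a single cultivar or line, so a difference between groups holds for these 3 genotypes only.

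Plants of a single crop species do not all carry or use the same genes. Intracellular immune receptors of the NB-ARC class (also written NBS-LRR), which detect proteins of pathogens, are known to lie in clusters that differ between cultivars in the number and the sequence of their copies. Receptor-like kinases, F-box proteins and acyltransferases also belong to large plant gene families with many close copies. Reads were aligned to the genome of another lettuce, the crisphead cultivar Salinas, and only uniquely placed reads were counted. A gene that is not transcribed in a genotype and a gene that the genotype lacks or carries in a diverged form cannot be told apart in these counts, so silent means here only that next to no read was counted.

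The libraries held between 24108451 and 32840811 reads on genes, and between 24545 and 25234 genes had a read in each. Reads on no annotated feature made up 5.04% to 11.1% of a library, with the highest shares in ‘Okeechobee’ (LSL) replicates 1 and 3. All 26 leaf mesophyll genes looked up (light-harvesting proteins and the small subunit of Rubisco) had reads in every genotype. Their sum reached 4069 to 8373 CPM (counts scaled to library size) in ‘Okeechobee’ (LSL), 4618 to 11260 in ‘Manatee’ (ISL) and 19510 to 41380 in 60184 (SSL). The 3 guard cell and epidermis genes went the other way, at 13.14 to 16.63, 5.232 to 6.239 and 2.527 to 3.336 CPM in this order. The vascular list reached 123.7 to 166.3, 159.7 to 185.6 and 135 to 141.3 CPM. For the flower list it was 44.59 to 72.37, 94.06 to 101.8 and 99.08 to 121.6 CPM. None of the 58 genes was in the leaf, epidermis, vascular or flower marker lists, and the part of this difference in the results was not tested.

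Of the 58 genes, 45 had no read at all in 60184 (SSL), 6 had 1 read, 3 had 2 reads and 4 had 3 reads over the 3 libraries. In ‘Okeechobee’ (LSL) their means ran from 102.3 to 3170 reads with a median of 259.7, below the median of 663.3 over all genes expressed there. In 45 of them each ‘Okeechobee’ (LSL) library had at least 100 reads. Taking 3 reads over the group as the limit that a count of 0 allows, the 45 genes without a read had bounds of at least 118-fold to at least 3608-fold higher in ‘Okeechobee’ (LSL) than in 60184 (SSL), and a median bound of 365.7-fold. For the other 13 genes the ratio to 60184 (SSL) ran from 116.5 (95% counting interval 39.5 to 567.9) to 1621 (290.4 to 64063). All such bounds and intervals cover counting error only.

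**Figure D1:**
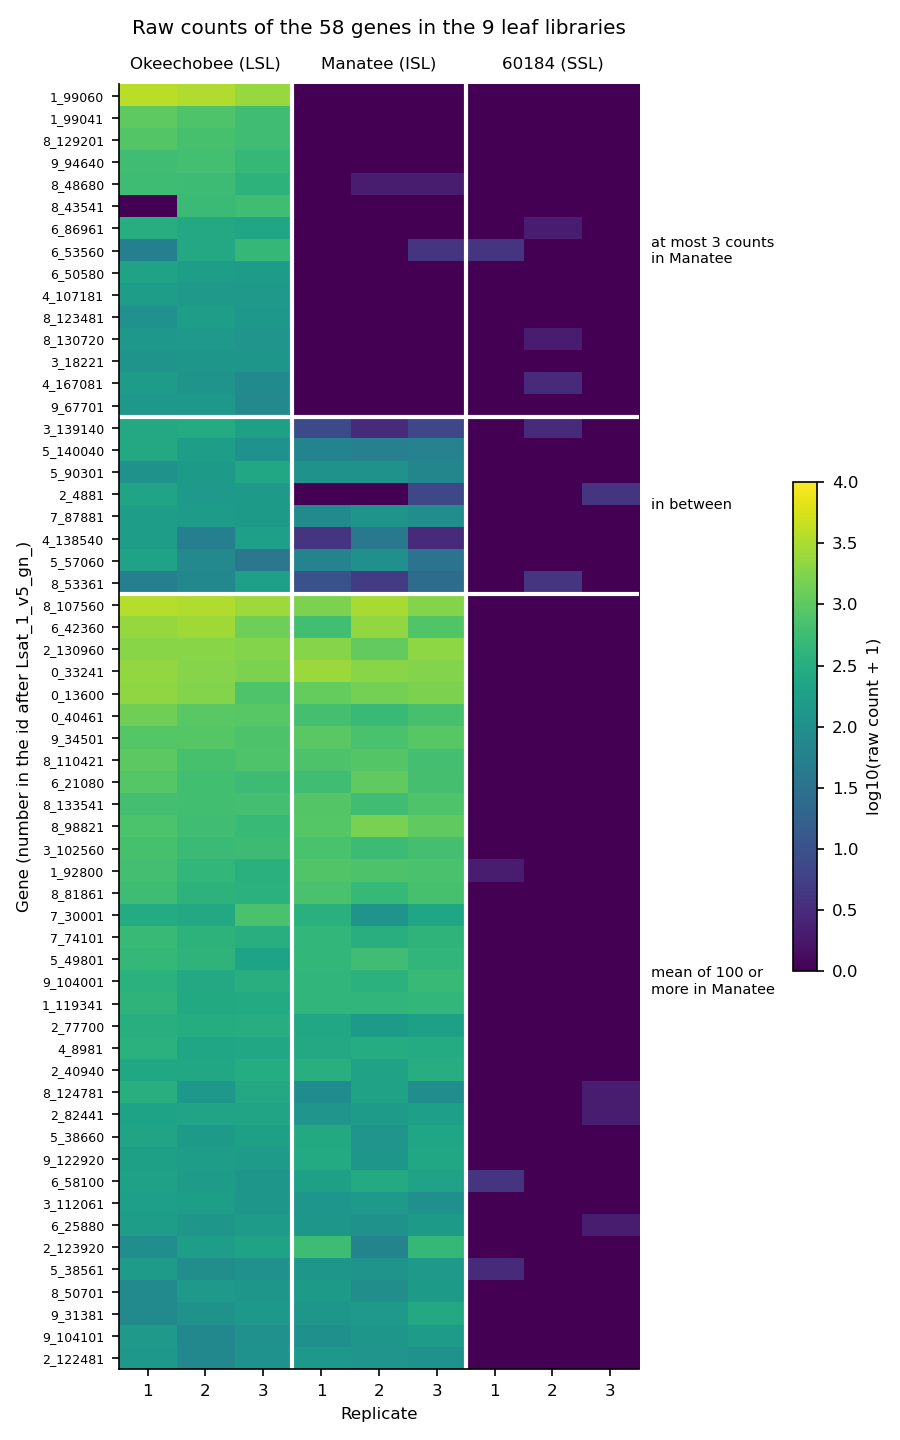
Raw counts of the 58 genes in each of the 9 libraries (columns, 3 replicates per genotype) as log10(raw count + 1), with the genes (rows) ordered by their state in ‘Manatee’ (ISL) and then by their mean in ‘Okeechobee’ (LSL). Of the 58 genes, 15 were silent in ‘Manatee’ (ISL), 8 lay in between and 35 were expressed there.

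The ‘Okeechobee’ (LSL) replicates did not always share a level. A gene for a B3 DNA-binding protein with ankyrin repeats (Lsat_1_v5_gn_8_43541) had 0, 524 and 602 reads in ‘Okeechobee’ (LSL) and 0 reads in all libraries of ‘Manatee’ (ISL) and 60184 (SSL). It was thus at 0 in a library of its own group, and it was the 1 gene of the 58 that did not pass the filter on low counts. The annotated genes on either side of it (Lsat_1_v5_gn_8_43520 and Lsat_1_v5_gn_8_43581) had 396 and 805 reads in that same library, ‘Okeechobee’ (LSL) replicate 1. A gene described as a subunit of a vesicle-tethering complex (Lsat_1_v5_gn_6_53560) had 53, 261 and 467 reads in ‘Okeechobee’ (LSL), 0, 0 and 3 in ‘Manatee’ (ISL) and 3, 0 and 0 in 60184 (SSL). Over all 58 genes the coefficient of variation between the ‘Okeechobee’ (LSL) libraries had a median of 0.173, against 0.151 over the other genes expressed there.

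Just inside the limit on the mean lay a GH3-type amido synthetase gene (Lsat_1_v5_gn_8_53361, mean of 102.3) and a HERK1-like kinase gene (Lsat_1_v5_gn_5_57060, mean of 103.7). Just outside it lay Lsat_1_v5_gn_1_124260, with a mean of 92.33, and Lsat_1_v5_gn_4_161500, with a mean of 91.0 that came from 8, 4 and 261 reads. At the limit on the sum, Lsat_1_v5_gn_6_53560 and Lsat_1_v5_gn_2_4881 had 3 reads in 60184 (SSL), while Lsat_1_v5_gn_9_112680 with 4 reads and Lsat_1_v5_gn_3_122040 with 5 reads stayed out.

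The libraries of ‘Manatee’ (ISL) split the genes into 3 classes. By the same limits, 15 of the 58 genes (25.9%) were silent in ‘Manatee’ (ISL) as well, 13 of them without a read, and 35 (60.3%) were expressed there with a mean of at least 100 reads. The other 8 lay in between. Over all 16375 genes expressed in ‘Okeechobee’ (LSL), 52 (0.318%) were silent and 15731 (96.1%) were expressed in ‘Manatee’ (ISL), so 15 of the 52 genes silent in ‘Manatee’ (ISL) were among the 58. Among the 16317 genes outside the 58, 37 (0.227%) were silent in ‘Manatee’ (ISL).

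Most of the 35 genes expressed in ‘Manatee’ (ISL) lay within 2-fold of ‘Okeechobee’ (LSL), as did most genes expressed in both. The ratio of ‘Manatee’ (ISL) to ‘Okeechobee’ (LSL), on counts scaled by TMM, ran from 0.483 to 2.12 over the 35 genes with a median of 1.02, against a median of 1.002 over all genes expressed in ‘Okeechobee’ (LSL). Of the 35, 33 lay within 2-fold of ‘Okeechobee’ (LSL) (94.3%), as did 14694 of the 15731 genes expressed in both (93.4%). Within 1.5-fold lay 26 of the 35 (74.3%) and 12689 of the 15731 (80.7%).

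‘Okeechobee’ (LSL) was tested against ‘Manatee’ (ISL) across 21937 genes with edgeR’s quasi-likelihood test, and a gene was called at a Benjamini-Hochberg adjusted p under 0.05 and a log2 fold change of at least 1. Of the 58 genes 17 were called higher in ‘Okeechobee’ (LSL), 0 were called lower, 40 were not called and 1, Lsat_1_v5_gn_8_43541, was not tested. The background of such calls over all genes tested was 3.19% higher and 2.72% lower. The choice asked for expression in ‘Okeechobee’ (LSL), which favours the calls in that direction, and 16 of the 17 had under 10 reads in every ‘Manatee’ (ISL) library and so passed the filter through ‘Okeechobee’ (LSL) alone. Their calls follow from the choice and describe the genes without supporting a difference. The 17 were 14 of the genes silent in ‘Manatee’ (ISL) and 3 of those in between, and the one that did not owe its test to ‘Okeechobee’ (LSL) alone was Lsat_1_v5_gn_5_140040. Of the 35 expressed in ‘Manatee’ (ISL), edgeR called 0 in either direction, DESeq2 likewise called 0, and at an unadjusted edgeR p under 0.05 there were 4 on the higher and 2 on the lower side. The counts by DESeq2 and at the unadjusted limit were not made over all genes, so they have no background. A difference that misses these limits is not shown to be absent.

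**Figure D2:**
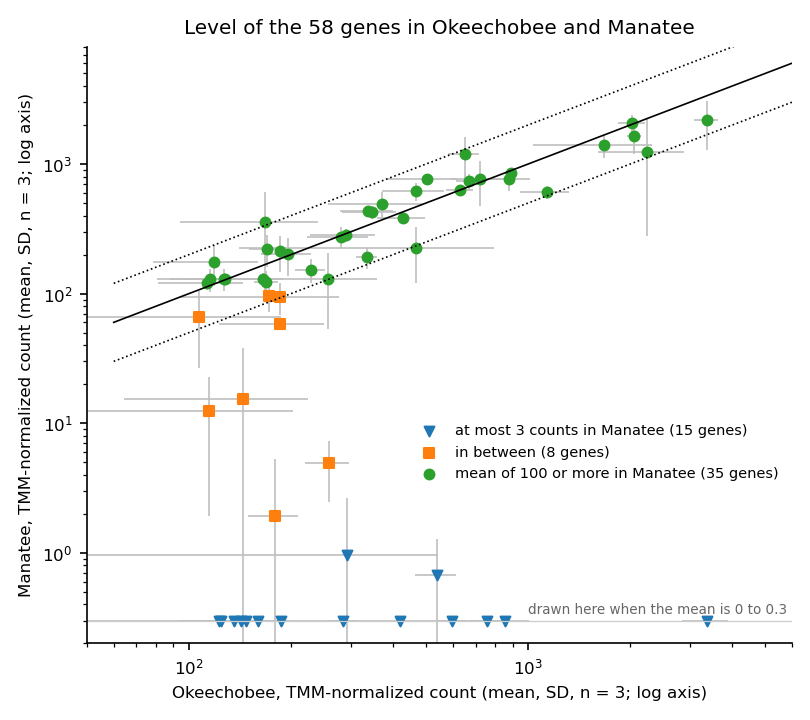
TMM-normalized counts of the 58 genes in ‘Okeechobee’ (LSL, x axis) and ‘Manatee’ (ISL, y axis), both on log axes, as means with the SD over 3 libraries, with the line of equal levels (solid) and 2-fold limits (dotted). The 35 genes expressed in ‘Manatee’ (ISL) lie along the line at ratios of 0.483 to 2.12, while the 15 silent ones lie at the bottom whatever their level in ‘Okeechobee’ (LSL).

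The most abundant of the genes that ‘Okeechobee’ (LSL) alone expressed was an immune receptor gene. This TIR-NBS-LRR gene similar to RUN1 (Lsat_1_v5_gn_1_99060) had 3820, 3304 and 2386 reads in ‘Okeechobee’ (LSL), and 0 in each library of ‘Manatee’ (ISL) and 60184 (SSL). RUN1 is known from grapevine relatives as a receptor that gives resistance to powdery mildew. Its level in ‘Okeechobee’ (LSL) was higher than in ‘Manatee’ (ISL) by at least 3399-fold and higher than in 60184 (SSL) by at least 3608-fold. The gene directly before it (Lsat_1_v5_gn_1_99041), for which no description was found, had 1013, 804 and 603 reads in ‘Okeechobee’ (LSL) and likewise 0 elsewhere.

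A second TIR-NBS-LRR gene (Lsat_1_v5_gn_8_48680), similar to Roq1, the receptor that in Nicotiana benthamiana detects a bacterial effector protein, had 577, 558 and 385 reads in ‘Okeechobee’ (LSL), 0, 1 and 1 in ‘Manatee’ (ISL) and 0 in 60184 (SSL). The ratio of ‘Okeechobee’ (LSL) to ‘Manatee’ (ISL) was 814.8 (95% counting interval 225.2 to 6734). The other 3 immune receptor genes were expressed in ‘Manatee’ (ISL), so that only 60184 (SSL) went without them. Of these, Lsat_1_v5_gn_1_92800 had 635, 449 and 340 reads in ‘Okeechobee’ (LSL), 817, 749 and 715 in ‘Manatee’ (ISL) and 1, 0 and 0 in 60184 (SSL); its sources name it both a TIR-NBS-LRR protein and ROH1. The normalized ‘Manatee’ (ISL) libraries of this gene all lay above those of ‘Okeechobee’ (LSL), with a log2 fold change of -0.57 ± 0.19 (SE) that was not called (adjusted p = 0.109, edgeR). A CC-NBS-LRR gene described as a homolog of a late blight resistance protein (Lsat_1_v5_gn_8_124781) had 329, 135 and 258 reads in ‘Okeechobee’ (LSL), 88, 204 and 89 in ‘Manatee’ (ISL) and 0, 0 and 1 in 60184 (SSL). The lowest of the 5, a further Roq1-like gene (Lsat_1_v5_gn_8_50701), had 82, 141 and 128 reads in ‘Okeechobee’ (LSL), 148, 94 and 150 in ‘Manatee’ (ISL) and 0 in 60184 (SSL).

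Descriptions in the study’s supplementary tables were found for 42 of the 58 genes, and 5 of the 42 (11.9%) were NB-ARC immune receptors, against 3.41% of the described genes expressed in ‘Okeechobee’ (LSL). Those tables were drawn up from the study’s own comparison of ‘Okeechobee’ (LSL) with 60184 (SSL), so neither share speaks for all lettuce genes. Of the 126 genes outside the 58 that matched the words of this list and were tested for ‘Okeechobee’ (LSL) against 60184 (SSL), edgeR called 88 higher and 23 lower. Called genes are frequent among described ones for the reason just given: of the 3687 described genes tested outside the 58, 1308 (35.5%) were called higher and 962 (26.1%) lower, while over all 22113 genes tested it was 9.52% and 8.27%. That comparison called 57 of the 58 genes higher, as the choice fixed, and did not test Lsat_1_v5_gn_8_43541.

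Protein kinases gave 5 of the 58 genes, and 3 of the 5 were expressed in ‘Manatee’ (ISL). They were 11.9% of the described genes among the 58, near the 9.37% of the described genes expressed in ‘Okeechobee’ (LSL). Calcium-dependent protein kinase 7 (Lsat_1_v5_gn_2_130960), of a family that turns calcium signals into phosphorylation, had 1947, 1969 and 1824 reads in ‘Okeechobee’ (LSL), 1843, 1078 and 2056 in ‘Manatee’ (ISL) and 0 in 60184 (SSL). Only 60184 (SSL) stood apart, and the log2 fold change of ‘Okeechobee’ (LSL) over ‘Manatee’ (ISL) was 0.35 ± 0.21 (SE; adjusted p = 0.348, edgeR). The 2 other genes described as this kinase were not silent: Lsat_1_v5_gn_9_28600 had 4477, 3717 and 3030 reads in ‘Okeechobee’ (LSL), 2675, 3862 and 2668 in ‘Manatee’ (ISL) and 1959, 2120 and 2207 in 60184 (SSL). Lsat_1_v5_gn_3_113201 had 661, 467 and 328 reads in ‘Okeechobee’ (LSL), 213, 601 and 202 in ‘Manatee’ (ISL) and 135, 114 and 141 in 60184 (SSL).

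Among the kinases were 2 genes similar to FERONIA, which in Arabidopsis thaliana is a cell surface receptor for RALF peptides. Lsat_1_v5_gn_8_110421 had 989, 694 and 783 reads in ‘Okeechobee’ (LSL), 775, 852 and 646 in ‘Manatee’ (ISL) and 0 in 60184 (SSL). Lsat_1_v5_gn_4_167081 had 155, 117 and 80 reads in ‘Okeechobee’ (LSL), 0 in ‘Manatee’ (ISL) and 0, 2 and 0 in 60184 (SSL). The first was thus missing from 60184 (SSL) alone and the second from both other genotypes. The 7 other described genes assigned to the same A. thaliana gene all had reads in 60184 (SSL). For ‘Okeechobee’ (LSL) against 60184 (SSL), edgeR called 5 of the 7 higher and 1 lower, and 1 was not called. The gene called lower, Lsat_1_v5_gn_1_86480, had 28, 5 and 14 reads in ‘Okeechobee’ (LSL) and 50, 94 and 40 in ‘Manatee’ (ISL). In 60184 (SSL) this gene had 2230, 1631 and 1953 reads.

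The remaining kinases were a lectin receptor kinase and a kinase of the FERONIA family. The lectin receptor kinase gene (Lsat_1_v5_gn_2_82441) had 207, 215 and 216 reads in ‘Okeechobee’ (LSL), 121, 156 and 181 in ‘Manatee’ (ISL) and 0, 0 and 1 in 60184 (SSL). The HERK1-like gene (Lsat_1_v5_gn_5_57060) had 198, 75 and 38 reads in ‘Okeechobee’ (LSL), 60, 102 and 32 in ‘Manatee’ (ISL) and 0 in 60184 (SSL). Its log2 fold change of 0.73 ± 0.65 (SE) over ‘Manatee’ (ISL) rested on ‘Okeechobee’ (LSL) replicate 1, without which it was -0.09 (adjusted p = 0.945, edgeR).

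Transferases gave 4 of the 58 genes, 9.52% of the described genes among the 58, against 7.44% of the described genes expressed in ‘Okeechobee’ (LSL). A malonyltransferase gene (Lsat_1_v5_gn_8_107560), of a class that attaches malonyl groups to anthocyanin pigments, had 3550, 3336 and 2592 reads in ‘Okeechobee’ (LSL), 1646, 3005 and 1789 in ‘Manatee’ (ISL) and 0 in 60184 (SSL). The libraries of ‘Okeechobee’ (LSL) and ‘Manatee’ (ISL) overlapped, with a log2 fold change of 0.66 ± 0.27 (SE; adjusted p = 0.187, edgeR). An acyltransferase gene similar to alcohol acyltransferase 9 (Lsat_1_v5_gn_2_123920) had 90, 169 and 200 reads in ‘Okeechobee’ (LSL), 580, 62 and 453 in ‘Manatee’ (ISL) and 0 in 60184 (SSL). It had the highest ratio of ‘Manatee’ (ISL) to ‘Okeechobee’ (LSL) among the 58, 2.12, but ‘Manatee’ (ISL) replicate 2 lay below every ‘Okeechobee’ (LSL) library and the difference was not called (log2 fold change of -1.06 ± 0.72, SE; adjusted p = 0.401, edgeR). A methyltransferase gene (Lsat_1_v5_gn_8_133541) had almost the same count in each ‘Okeechobee’ (LSL) library, 628, 615 and 627, with 858, 585 and 787 in ‘Manatee’ (ISL) and 0 in 60184 (SSL).

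A succinyltransferase gene (Lsat_1_v5_gn_3_139140), whose product is a core part of the mitochondrial 2-oxoglutarate dehydrogenase complex, behaved otherwise. It had 255, 284 and 189 reads in ‘Okeechobee’ (LSL), 7, 2 and 6 in ‘Manatee’ (ISL) and 0, 2 and 0 in 60184 (SSL). Its log2 fold change of ‘Okeechobee’ (LSL) over ‘Manatee’ (ISL) was 5.69 ± 0.40 (SE, edgeR). A second gene for the same enzyme (Lsat_1_v5_gn_9_93360) had 2339, 2417 and 1578 reads in ‘Okeechobee’ (LSL), 1181, 2647 and 1509 in ‘Manatee’ (ISL) and 1068, 874 and 1199 in 60184 (SSL), so reads for this enzyme were counted in all 3 genotypes.

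Of the hydrolases and proteases, a Ulp1-type protease gene (Lsat_1_v5_gn_0_40461), of the class that removes SUMO from proteins, had 1350, 952 and 898 reads in ‘Okeechobee’ (LSL), 667, 492 and 678 in ‘Manatee’ (ISL) and 0 in 60184 (SSL). All its ‘Manatee’ (ISL) libraries lay below those of ‘Okeechobee’ (LSL), by a log2 fold change of 0.92 ± 0.17 (SE; adjusted p = 0.0198, edgeR) that stayed under the fold limit of a call. A gene described as ureidoglycolate amidohydrolase, an enzyme of purine breakdown, and elsewhere as villin-4 (Lsat_1_v5_gn_6_21080) had 869, 610 and 556 reads in ‘Okeechobee’ (LSL), 584, 1039 and 659 in ‘Manatee’ (ISL) and 0 in 60184 (SSL). A gene described both as an aspartyl protease and as DEK1 (Lsat_1_v5_gn_6_86961) had 314, 263 and 223 reads in ‘Okeechobee’ (LSL), 0 in ‘Manatee’ (ISL) and 0, 1 and 0 in 60184 (SSL). The only described copy of that aspartyl protease outside the 58 (Lsat_1_v5_gn_1_61380) had 748, 918 and 777 reads in ‘Okeechobee’ (LSL), 1279, 1129 and 1292 in ‘Manatee’ (ISL) and 1797, 1613 and 1788 in 60184 (SSL), the opposite order. Its log2 fold change of -0.90 against 60184 (SSL) (adjusted p = 0.00295, edgeR) stayed under the fold limit of a call.

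The word list of transcription factors and DNA binding matched 5 of the 58, and none of the 5 was expressed in ‘Manatee’ (ISL) by the limit of 100 reads. They were 11.9% of the described genes among the 58, against 8.49% of the described genes expressed in ‘Okeechobee’ (LSL). Besides the B3 gene, a gene described as winged-helix or La-related protein 1C (Lsat_1_v5_gn_3_18221) had 118, 130 and 131 reads in ‘Okeechobee’ (LSL) and 0 in ‘Manatee’ (ISL) and 60184 (SSL). The ERF110-like gene (Lsat_1_v5_gn_4_138540), of the family of ethylene response factors, had 171, 52 and 177 reads in ‘Okeechobee’ (LSL), 3, 39 and 2 in ‘Manatee’ (ISL) and 0 in 60184 (SSL). Its difference between ‘Okeechobee’ (LSL) and ‘Manatee’ (ISL) was not called (log2 fold change of 3.27 ± 1.07, SE, edgeR), and 1 library in either genotype stood apart from its group. The gene named cellulose synthase 1 in one source and X-box transcription factor-related in another (Lsat_1_v5_gn_5_140040) had 254, 168 and 109 reads in ‘Okeechobee’ (LSL), 62, 55 and 59 in ‘Manatee’ (ISL) and 0 in 60184 (SSL), and was called (log2 fold change of 1.69 ± 0.30, SE; adjusted p = 0.0187, edgeR). A gene described as a double-stranded RNA-binding zinc finger protein (Lsat_1_v5_gn_5_90301) entered this list by the words zinc finger. It had 111, 151 and 245 reads in ‘Okeechobee’ (LSL), 108, 108 and 67 in ‘Manatee’ (ISL) and 0 in 60184 (SSL), and was not called (adjusted p = 0.181, edgeR).

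Genes that share a description occurred among the abundant ones too. Of the 2 genes for LURP-one-related protein 10, a relative of LURP1, which takes part in A. thaliana in defence against downy mildew, Lsat_1_v5_gn_0_33241 had 2243, 1869 and 1601 reads in ‘Okeechobee’ (LSL), 2476, 1967 and 1818 in ‘Manatee’ (ISL) and 0 in 60184 (SSL). Lsat_1_v5_gn_0_13600 had 2171, 1826 and 804 reads in ‘Okeechobee’ (LSL), 1114, 1475 and 1597 in ‘Manatee’ (ISL) and 0 in 60184 (SSL). Their ids have the number 0 in place of a chromosome, as have those of 3 of the 58 genes, against 2.13% of all genes expressed in ‘Okeechobee’ (LSL). Another gene with this description (Lsat_1_v5_gn_9_38141) had 27910, 23211 and 18751 reads in ‘Okeechobee’ (LSL), 15900, 27644 and 16394 in ‘Manatee’ (ISL) and 9200, 6320 and 8675 in 60184 (SSL).

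Proteins that bind ubiquitin or mark others with it were 2 of the 58, and both were expressed in ‘Manatee’ (ISL). They were 4.76% of the described genes among the 58, against 2.98% of the described genes expressed in ‘Okeechobee’ (LSL). The gene for the ubiquitin receptor DSK2a (Lsat_1_v5_gn_9_34501) had 865, 883 and 749 reads in ‘Okeechobee’ (LSL), 956, 706 and 898 in ‘Manatee’ (ISL) and 0 in 60184 (SSL). An F-box gene (Lsat_1_v5_gn_9_104001) had 363, 263 and 338 reads in ‘Okeechobee’ (LSL), 428, 364 and 493 in ‘Manatee’ (ISL) and 0 in 60184 (SSL). Neither was called between ‘Okeechobee’ (LSL) and ‘Manatee’ (ISL), with adjusted p = 0.681 for DSK2a and 0.396 for the F-box gene (edgeR).

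Single genes of other kinds completed the described set. The second most abundant gene that ‘Manatee’ (ISL) shared, of unknown function with a DUF594 domain (Lsat_1_v5_gn_6_42360), had 2358, 2684 and 1331 reads in ‘Okeechobee’ (LSL), 620, 2208 and 806 in ‘Manatee’ (ISL) and 0 in 60184 (SSL). A mannose-binding lectin gene (Lsat_1_v5_gn_7_30001) had 290, 255 and 717 reads in ‘Okeechobee’ (LSL), 341, 115 and 231 in ‘Manatee’ (ISL) and 0 in 60184 (SSL), the lowest ratio of ‘Manatee’ (ISL) to ‘Okeechobee’ (LSL) among the 35, 0.483. A gene of an En/Spm-type transposase (Lsat_1_v5_gn_6_58100) had 191, 158 and 130 reads in ‘Okeechobee’ (LSL), 187, 275 and 199 in ‘Manatee’ (ISL) and 3, 0 and 0 in 60184 (SSL). Both genotypes with reads overlapped for all 3 of these genes. A gene named for a reductase and thymidylate synthase in one source and a fatty acid oxidation enzyme in another (Lsat_1_v5_gn_2_77700) had 324, 304 and 308 reads in ‘Okeechobee’ (LSL), 237, 150 and 189 in ‘Manatee’ (ISL) and 0 in 60184 (SSL).

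Several genes that ‘Okeechobee’ (LSL) alone expressed are described as parts of the basic machinery of the cell. A gene whose sources name a methionine-tRNA ligase, a diacylglycerol kinase and the transcriptional adaptor ADA2 (Lsat_1_v5_gn_8_129201) had 864, 683 and 592 reads in ‘Okeechobee’ (LSL) and 0 in ‘Manatee’ (ISL) and 60184 (SSL). A histone H4 gene (Lsat_1_v5_gn_6_50580) had 200, 171 and 153 reads in ‘Okeechobee’ (LSL) and 0 in the other genotypes. The gene of the P-type ATPase PDR2 (Lsat_1_v5_gn_8_130720), a membrane ion pump that in A. thaliana roots takes part in the response to low phosphate, had 137, 141 and 120 reads in ‘Okeechobee’ (LSL), 0 in ‘Manatee’ (ISL) and 0, 1 and 0 in 60184 (SSL). None of these 3 genes had a read in ‘Manatee’ (ISL), and their bounds against it ran from at least 142.2-fold to at least 764.4-fold. A cyclin B2 gene (Lsat_1_v5_gn_2_4881), whose class drives entry into mitosis, had 212, 144 and 149 reads in ‘Okeechobee’ (LSL), 0, 0 and 6 in ‘Manatee’ (ISL) and 0, 0 and 3 in 60184 (SSL), with a log2 fold change of 6.43 ± 0.86 (SE, edgeR) over ‘Manatee’ (ISL).

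The other described genes were 6 of lower level. Of these, a P-loop nucleotide hydrolase gene (Lsat_1_v5_gn_4_107181; 167, 140 and 141 reads in ‘Okeechobee’ (LSL)) had 0 reads in the other genotypes. Genes described as RAN GTPase 3 (Lsat_1_v5_gn_4_8981), a C2 and GRAM domain protein (Lsat_1_v5_gn_3_112061), an ATPase subunit (Lsat_1_v5_gn_6_25880) and acetyl-CoA carboxylase 1 (Lsat_1_v5_gn_5_38561) were all expressed in ‘Manatee’ (ISL), at ratios to ‘Okeechobee’ (LSL) of 0.976, 0.731, 0.785 and 1.02. The GH3-type gene at the limit (Lsat_1_v5_gn_8_53361), of the family that couples plant hormones to amino acids, had 52, 72 and 183 reads in ‘Okeechobee’ (LSL), 9, 4 and 25 in ‘Manatee’ (ISL) and 0, 3 and 0 in 60184 (SSL), and was not called against ‘Manatee’ (ISL). The 16 genes without a description held 3 of the genes silent in ‘Manatee’ (ISL), and the one most above ‘Okeechobee’ (LSL) in ‘Manatee’ (ISL), Lsat_1_v5_gn_8_98821, had 728, 585 and 516 reads in ‘Okeechobee’ (LSL), 878, 1571 and 1068 in ‘Manatee’ (ISL) and 0 in 60184 (SSL).

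Besides Lsat_1_v5_gn_1_99041, the undescribed genes silent in ‘Manatee’ (ISL) were Lsat_1_v5_gn_8_123481, with 103, 174 and 134 reads in ‘Okeechobee’ (LSL) and 0 in the other genotypes, and Lsat_1_v5_gn_9_67701, with 136, 135 and 76 reads and likewise 0 elsewhere. Both had a neighbour that was low wherever they were silent. A CC-NBS-LRR gene near the first (Lsat_1_v5_gn_8_123301) had 113, 116 and 72 reads in ‘Okeechobee’ (LSL), 1, 4 and 6 in ‘Manatee’ (ISL) and 17, 14 and 14 in 60184 (SSL). A gene near the second (Lsat_1_v5_gn_9_67781) had 30, 14 and 29 reads in ‘Okeechobee’ (LSL), 3, 1 and 1 in ‘Manatee’ (ISL) and 3, 0 and 4 in 60184 (SSL). edgeR called both neighbours higher in ‘Okeechobee’ (LSL) in either comparison. Against ‘Manatee’ (ISL) both passed the filter on low counts through ‘Okeechobee’ (LSL) alone, as Lsat_1_v5_gn_9_67781 did against 60184 (SSL). Those calls could only be higher and do not support a difference. Of the undescribed genes that ‘Manatee’ (ISL) expressed, Lsat_1_v5_gn_3_102560 had 673, 537 and 560 reads in ‘Okeechobee’ (LSL), 697, 554 and 660 in ‘Manatee’ (ISL) and 0 in 60184 (SSL), a log2 fold change of 0.02 ± 0.13 (SE) over ‘Manatee’ (ISL). Lsat_1_v5_gn_7_87881, in between, had 171, 161 and 150 reads in ‘Okeechobee’ (LSL), 79, 117 and 92 in ‘Manatee’ (ISL) and 0 in 60184 (SSL), and was not called (adjusted p = 0.0795, edgeR).

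For 20 of the 58 genes, another described gene was assigned to the same A. thaliana gene, and 74 such genes lay outside the 58. For ‘Okeechobee’ (LSL) against 60184 (SSL), edgeR called 60 of the 74 higher and 9 lower, and 5 were not called, where 35.5% and 26.1% of all described genes outside the 58 were called higher and lower; 30 of the 74 came from a single TIR-NBS-LRR assignment. A WD40 repeat gene had a partner of the opposite pattern. Lsat_1_v5_gn_9_94640 had 582, 632 and 465 reads in ‘Okeechobee’ (LSL) and 0 in ‘Manatee’ (ISL) and 60184 (SSL), while Lsat_1_v5_gn_5_31580, of the same description, had 0 in ‘Okeechobee’ (LSL), 62, 34 and 86 in ‘Manatee’ (ISL) and 68, 45 and 64 in 60184 (SSL). No library had reads on both genes, which was noticed after the values were seen.

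Of the 58 genes 55 lay on the 9 numbered chromosomes, each of which held some, and 3 had the number 0 in their ids. Chromosome 8 held 13 of them (22.4%), 6.1 per 1000 genes expressed in ‘Okeechobee’ (LSL), while it held 13.0% of those expressed genes. It also held 5 of the 15 genes silent in ‘Manatee’ (ISL). The other numbered chromosomes had 3 to 7 each, or 1.89 to 4.72 per 1000 expressed genes, and no gene silent in ‘Manatee’ (ISL) lay on chromosomes 2, 5 or 7.

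**Figure D3:**
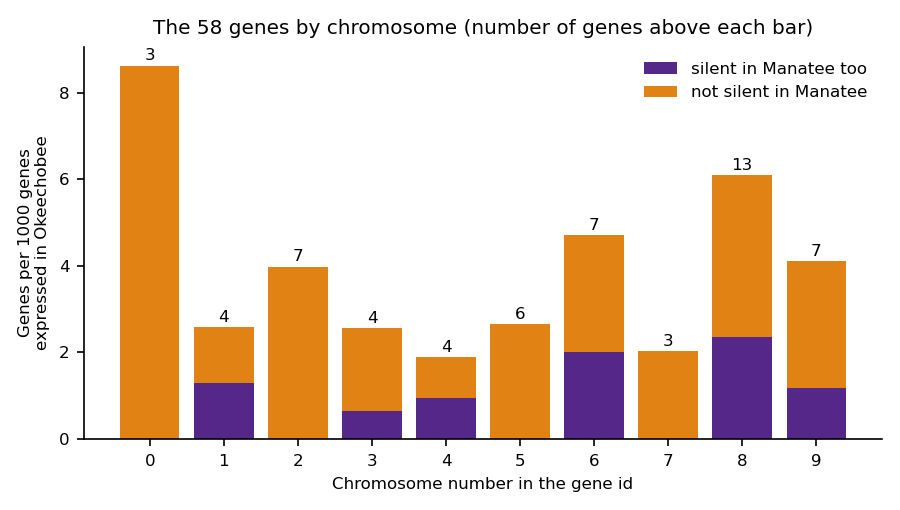
The 58 genes by the chromosome number in their ids (x axis), as genes per 1000 genes expressed in ‘Okeechobee’ (LSL) (y axis), stacked by their state in ‘Manatee’ (ISL), with the number of genes above each bar. Chromosome 8 has 13 genes, 6.1 per 1000, and those with the number 0 are 3 of 348.

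The number in an id gives the order of the genes on their chromosome, and by this order the 58 genes were mostly scattered. Only 2 of them, Lsat_1_v5_gn_1_99041 and Lsat_1_v5_gn_1_99060, were direct neighbours, and 6 (10.3%) lay within 5 annotated genes of another of the 58, against 1.31% of the 16317 other genes expressed in ‘Okeechobee’ (LSL). The other close pairs were Lsat_1_v5_gn_5_38561 with Lsat_1_v5_gn_5_38660 and Lsat_1_v5_gn_9_104001 with Lsat_1_v5_gn_9_104101, each 4 genes apart. A gene of the reverse kind, silent in ‘Okeechobee’ (LSL) and expressed in 60184 (SSL), lay within 5 genes of 1 of the 58 (1.72%), near the share of 1.48% among the other genes expressed in ‘Okeechobee’ (LSL). It was Lsat_1_v5_gn_2_4741, 4 genes from the cyclin gene, with 0 reads in ‘Okeechobee’ (LSL) and ‘Manatee’ (ISL) and 106, 152 and 163 in 60184 (SSL).

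Genes beside the 58 were often called as well. The nearest gene on each side that passed the filter on low counts and was not one of the 58, if it lay within 5 annotated genes, gave 108 neighbours. For ‘Okeechobee’ (LSL) against 60184 (SSL), edgeR called 25 of them higher (23.1%) and 19 lower (17.6%), against the background of 9.52% higher and 8.27% lower. Some calls had a fixed direction, since a gene silent in 1 genotype passes the filter through the other alone. Silent in 60184 (SSL) were 4 of the 108 (3.70%), against 86 of the 22056 genes tested outside the 58 (0.390%). Silent in ‘Okeechobee’ (LSL) were 2 (1.85%), against 170 (0.771%). Neighbours with a few reads more, whose direction was fixed too, were not counted, so the shares only describe the neighbours. The median of their absolute log2 fold change was 0.88, against 0.45 over all genes tested. At least 1 neighbour was called for 38 of the 58 genes. The same count was not made for other genes, so this number has no background. Without the neighbours that lay directly beside one of the 58, which was tried after the data were seen, 11 of 60 were called higher and 12 lower. The 60 still hold Lsat_1_v5_gn_1_98941, which was not called. It lay 2 genes from Lsat_1_v5_gn_1_99060 but directly beside Lsat_1_v5_gn_1_99041.

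Against ‘Manatee’ (ISL), the neighbours were counted by the state of the gene they lay beside. Of 25 neighbours of the genes silent in ‘Manatee’ (ISL), edgeR called 5 higher and 3 lower in ‘Okeechobee’ (LSL). Of 79 neighbours of the other genes, 4 were higher (5.06%) and 2 lower (2.53%), against the background of 3.19% and 2.72%. The difference between these shares was not tested. With DESeq2 the calls beside the other genes came to 11 of 79 in place of 6.

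**Figure D4:**
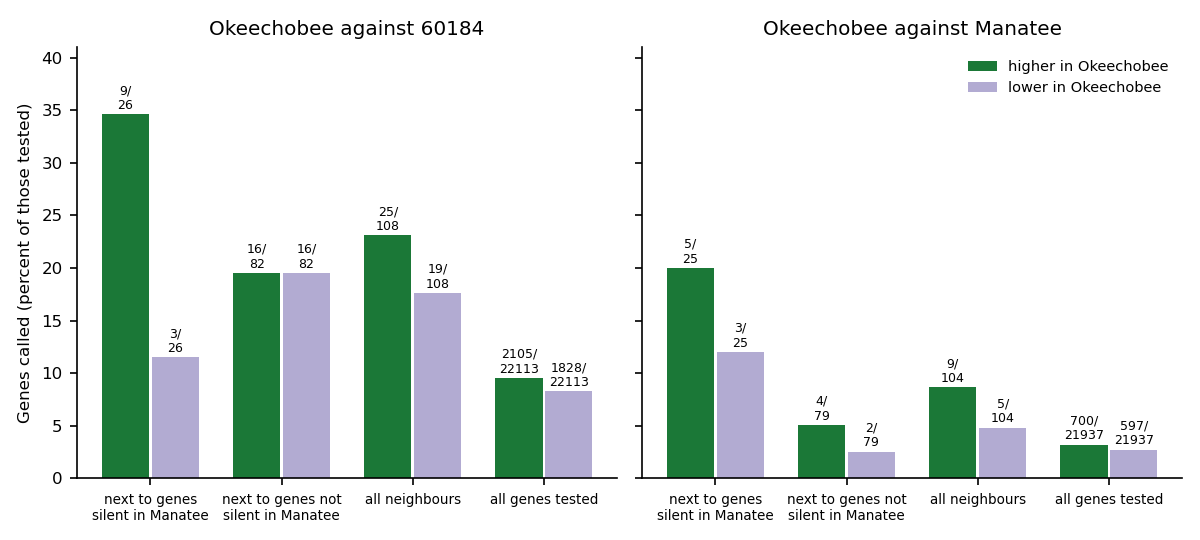
Share of genes called higher (green) and lower (violet) in ‘Okeechobee’ (LSL) against 60184 (SSL, left) and against ‘Manatee’ (ISL, right), in percent of those tested, with the counts above the bars. The 108 neighbours reach 23.1% and 17.6% against 60184 (SSL), where all genes tested reach 9.52% and 8.27%.

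Within 5 genes after the pair on chromosome 1 lay further genes that were high in ‘Okeechobee’ (LSL). The third gene after Lsat_1_v5_gn_1_99060, another NB-ARC gene (Lsat_1_v5_gn_1_99180), had 645, 731 and 557 reads in ‘Okeechobee’ (LSL), 26, 12 and 16 in ‘Manatee’ (ISL) and 6, 10 and 22 in 60184 (SSL). edgeR called it higher in both comparisons, with log2 fold changes of 5.28 over ‘Manatee’ (ISL) and 5.85 over 60184 (SSL). The fifth (Lsat_1_v5_gn_1_99240) had 633, 590 and 403 reads in ‘Okeechobee’ (LSL), 11, 10 and 21 in ‘Manatee’ (ISL) and 12, 16 and 23 in 60184 (SSL). On the other side of the pair, the 3 nearest genes with reads were called in neither comparison. A gene with the opposite pattern (Lsat_1_v5_gn_1_99400) lay 7 genes from Lsat_1_v5_gn_1_99060 and was assigned to the same A. thaliana gene. It had 0 reads in ‘Okeechobee’ (LSL), 126, 83 and 210 in ‘Manatee’ (ISL) and 50, 81 and 80 in 60184 (SSL). Reads of close copies may be placed on one or the other, so the values of such single genes are uncertain.

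Beside the Roq1-like gene Lsat_1_v5_gn_8_48680 lay a TIR-NBS-LRR gene with the mirror image of its pattern. That gene (Lsat_1_v5_gn_8_48660), directly before it, had 3, 1 and 1 reads in ‘Okeechobee’ (LSL), 725, 538 and 568 in ‘Manatee’ (ISL) and 552, 617 and 696 in 60184 (SSL), with log2 fold changes of -8.29 against ‘Manatee’ (ISL) and -8.26 against 60184 (SSL), both called by edgeR. In each comparison it passed the filter on low counts through the other genotype alone, so the calls could only be lower. A further TIR-NBS-LRR gene directly after the Roq1-like one (Lsat_1_v5_gn_8_48700) had 440, 239 and 269 reads in ‘Okeechobee’ (LSL), 127, 102 and 87 in ‘Manatee’ (ISL) and 100, 120 and 125 in 60184 (SSL). Reads of such close copies may be placed on one gene or on its neighbour, so the values of the single genes in this group are uncertain.

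Genes with opposite patterns also lay around the succinyltransferase gene Lsat_1_v5_gn_3_139140. The gene directly before it (Lsat_1_v5_gn_3_139120) had 61, 54 and 73 reads in ‘Okeechobee’ (LSL) and 0 in ‘Manatee’ (ISL) and 60184 (SSL). The gene directly after it (Lsat_1_v5_gn_3_139161) had 255, 278 and 268 reads in ‘Okeechobee’ (LSL), 256, 278 and 325 in ‘Manatee’ (ISL) and 307, 339 and 298 in 60184 (SSL), so it was at one level in all 3. The next gene (Lsat_1_v5_gn_3_139181) was low in ‘Okeechobee’ (LSL), with 8, 10 and 4 reads, against 491, 515 and 395 in ‘Manatee’ (ISL) and 215, 300 and 333 in 60184 (SSL).

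**Figure D5:**
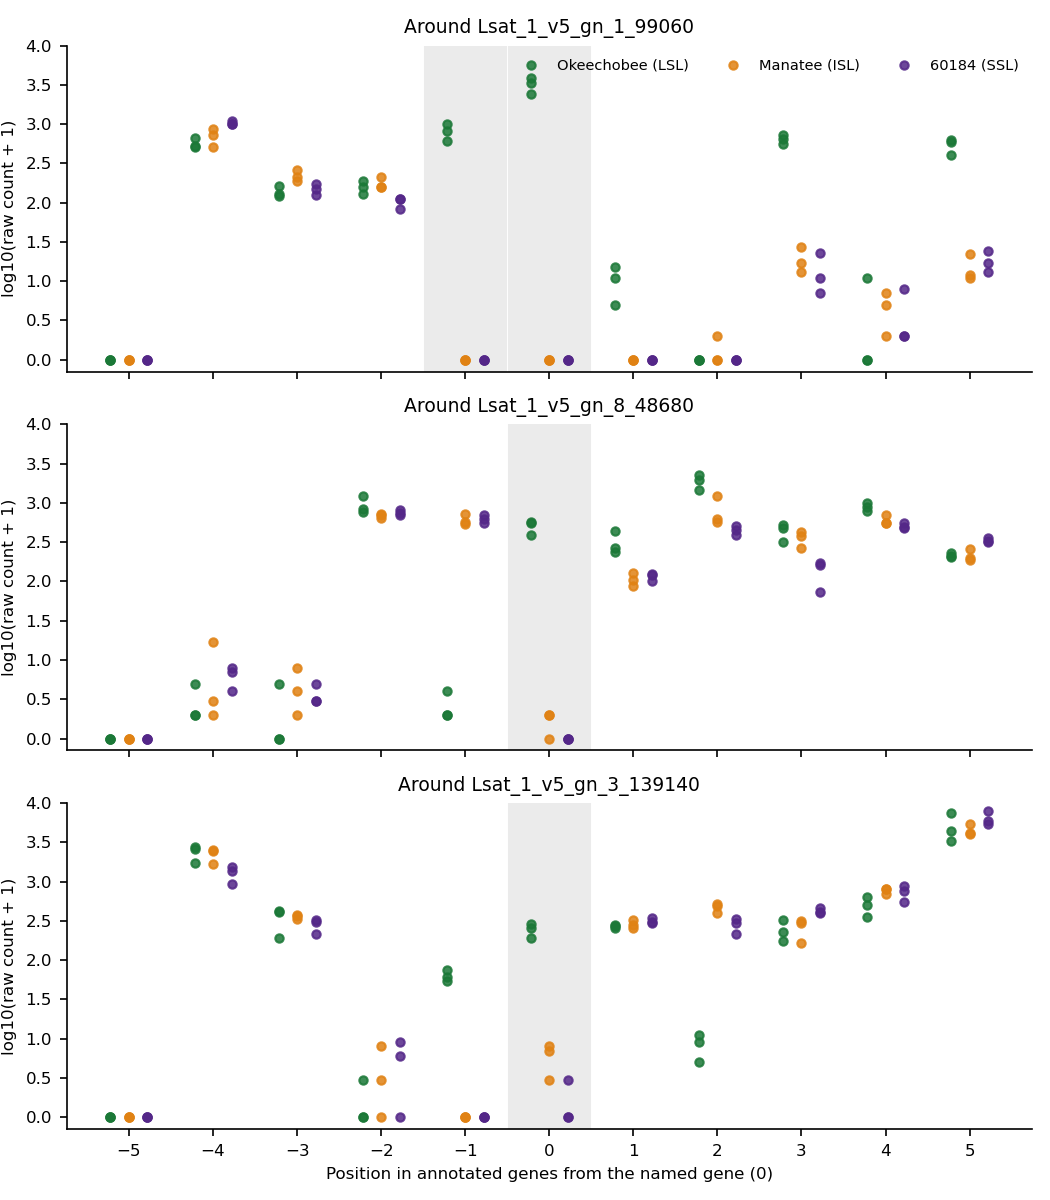
Raw counts as log10(raw count + 1) of the annotated genes up to 5 places before and after 3 of the 58 genes, by their order on the chromosome (x axis), with 1 point per library; grey bands mark genes of the 58. At Lsat_1_v5_gn_8_48680 the gene at place 0 has 385 to 577 reads in ‘Okeechobee’ (LSL) and at most 1 in the other libraries, while the gene at place -1 has 1 to 3 in ‘Okeechobee’ (LSL) and 538 to 725 in the others.

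Beside genes with few or no reads in 60184 (SSL), some neighbours also had few or none there. Beside the calcium-dependent kinase gene Lsat_1_v5_gn_2_130960, an ethylene response factor gene (Lsat_1_v5_gn_2_130880) had 660, 251 and 269 reads in ‘Okeechobee’ (LSL), 59, 262 and 43 in ‘Manatee’ (ISL) and 1, 7 and 1 in 60184 (SSL). Beside the undescribed gene Lsat_1_v5_gn_5_49801, which had 455, 398 and 205 reads in ‘Okeechobee’ (LSL), 449, 583 and 434 in ‘Manatee’ (ISL) and 0 in 60184 (SSL), its neighbour Lsat_1_v5_gn_5_49820 had 91, 101 and 73 reads in ‘Okeechobee’ (LSL), 60, 64 and 53 in ‘Manatee’ (ISL) and 0 in 60184 (SSL). Near the second FERONIA-like gene, a kinase gene of the same family (Lsat_1_v5_gn_4_167181) had 326, 283 and 137 reads in ‘Okeechobee’ (LSL), 196, 336 and 193 in ‘Manatee’ (ISL) and 4, 9 and 13 in 60184 (SSL). Of the 108 neighbours 4 (3.70%) had at most 3 reads over the 60184 (SSL) libraries, against 0.390% of the 22056 genes tested outside the 58.

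Neighbours could also go the other way. Beside Lsat_1_v5_gn_8_98821, the gene Lsat_1_v5_gn_8_98760, described as a dinucleoside triphosphatase, had 0 reads in ‘Okeechobee’ (LSL) and ‘Manatee’ (ISL) and 33, 67 and 60 in 60184 (SSL). On the other side of the same gene, a ribosomal protein L10 gene (Lsat_1_v5_gn_8_98880) had 63927, 48696 and 30762 reads in ‘Okeechobee’ (LSL), 20351, 56624 and 22116 in ‘Manatee’ (ISL) and 6332, 5162 and 7025 in 60184 (SSL). Both neighbours were called for ‘Okeechobee’ (LSL) against 60184 (SSL), in opposite directions. Lsat_1_v5_gn_8_98760 passed the filter on low counts through 60184 (SSL) alone, so it could only be called lower in ‘Okeechobee’ (LSL). Both neighbours were called for 7 of the 58 genes, which was not counted for other genes. Beside the acyltransferase gene Lsat_1_v5_gn_2_123920, the gene directly before it (Lsat_1_v5_gn_2_123901) had 0 reads in ‘Okeechobee’ (LSL) and ‘Manatee’ (ISL) and 21, 16 and 26 in 60184 (SSL).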

How the data were processed

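Leaves of 3 romaine genotypes were profiled by poly-A RNA-seq, with 3 libraries each and paired reads. Per the study’s methods, the authors trimmed reads with Cutadapt, aligned them with STAR to the Lsativa_467_v5 genome of cultivar Salinas, removed PCR duplicates and counted uniquely placed reads with HTSeq. The deposited values are raw counts per gene, 1 file per library, and hold no comparison columns; 0 columns were left unused. HTSeq’s summary lines (no feature, ambiguous, not unique) were left out of library sizes and tests, and their no-feature share is given with the results. It was not stated whether counting used strand.

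The 58 genes, the functional word lists and the neighbour rule were chosen with earlier results of these data known. edgeR 4.0.16 in R 4.3.3 (TMM, glmQLFit robust, glmQLFTest) was run on the 6 libraries of each of 2 pairwise comparisons, over genes that reached 10 counts in 3 or more libraries, with Benjamini-Hochberg adjustment over all genes tested. A call needed an adjusted p under 0.05 and a log2 fold change of 1 or more in size. With 3 libraries against 3, no exact permutation test of a single value can go below p = 0.1, so none was used. The study’s own test was DESeq2, run here (1.42.0) as an alternative. The code was tested on simulated data. Bounds against 0 counts used a floor of 3 counts over the group, scaled by effective library size.

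Genes named were the 12 largest by mean in ‘Okeechobee’ (LSL), genes in runs with their inner genes, up to 3 per functional list, those beside each limit, those outside the range of ‘Okeechobee’ (LSL) in ‘Manatee’ (ISL), and those near a reverse gene. Other members, neighbours and copies were named after their values were seen. Functions come from word matches in partial copies of the study’s supplementary tables, whose values were not used. 14 word lists were applied; none of the 58 genes fell in the lists of other leucine-rich repeat proteins, cytochrome P450 and terpene or sterol enzymes. No sequence is printed, since none was at hand for these ids.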

Additional observations from a re-analysis of the deposited data

How the results depend on the processing

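Of 173 counts of genes or calls under the alternatives, 156 stayed within 1.5 times of the value reported. The limits set the number of genes: 91 with a mean of 50 in ‘Okeechobee’ (LSL) (23 silent in ‘Manatee’ (ISL)) and 33 with a mean of 200 (8 silent and 21 expressed in ‘Manatee’ (ISL)). Direct neighbours among the genes numbered 4 with silence at a sum of at most 10 and 6 within 5 genes, and genes near a reverse gene numbered 0 within 1 gene and 4 within 20. After the data were seen, leaving out neighbours directly beside one of the 58 left 11 called higher and 12 lower, and for the neighbours of genes not silent in ‘Manatee’ (ISL), 6 calls became 11 with DESeq2. Leaving out each library in turn gave 55 to 75 genes, 14 to 16 silent and 33 to 40 expressed in ‘Manatee’ (ISL), 15 to 21 called higher and 0 to 1 lower against ‘Manatee’ (ISL), 21 to 23 neighbours higher and 13 to 19 lower, 1735 to 2107 genes higher and 1391 to 2049 lower against 60184 (SSL), 6 to 10 calls beside genes silent in ‘Manatee’ (ISL) and 4 to 8 beside the others, 2 to 4 direct neighbours and 1 to 2 genes near a reverse gene. The 1 gene called lower came without ‘Manatee’ (ISL) replicate 2, the 4 direct neighbours without 60184 (SSL) replicate 2, and the 2 near a reverse gene without ‘Okeechobee’ (LSL) replicate 1 or 60184 (SSL) replicate 3.

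Replicate numbers did not pair the libraries: deviations of same-numbered libraries correlated at 0.07, 0.11 and -0.12 between ‘Okeechobee’ (LSL) and 60184 (SSL) and at -0.32, -0.14 and 0.29 between ‘Okeechobee’ (LSL) and ‘Manatee’ (ISL). With a replicate block, calls beside genes not silent in ‘Manatee’ (ISL) fell to 3, while the other counts stayed within 1.5 times. Of 91 single-gene comparisons, 24 lost their adjusted p under at least 1 alternative, and 1 reversed: the HERK1-like gene (Lsat_1_v5_gn_5_57060), which ran from -0.087 without ‘Okeechobee’ (LSL) replicate 1 to 1.28 without ‘Manatee’ (ISL) replicate 2. The cause of these changes was not tested. At this depth a count of 0 allows up to 3 reads over the libraries of a genotype.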
